A study of Mus musculus with 4 samples.

Results

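The alpha-defensin family was represented on the arrays by 16 probes for 13 gene names, of 41174 non-control probes on the array. Its members were taken as every probe named Defa or Defcr in the scanner files, or named so through its RefSeq accession, and dim probes were kept. The rule also turns the 4 arrays so that the Cdx4 ratio is negative on each. The genes had been proposed with their ratios in view, so the turned ratios of the members are given as a description with no test. Of the 13 names, 8 had a probe bright enough to be tested (Defcr-rs2, Defcr-rs10, Defcr-rs12, Defcr4, Defcr6, Defa3, Defa20 and Defa31) and 5 did not (Defa1, Defa21, Defa22, Defa23 and Defa39). The 8 stand among 14842 genes tested.

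Alpha-defensins are small cationic peptides that disrupt bacterial membranes. In the mouse they are called cryptdins and are made by Paneth cells at the base of small-intestinal crypts, where they are stored in granules and cut to their active form by the matrix metalloproteinase Mmp7. Paneth cells appear in the mouse only after birth, and in them Wnt signalling through Tcf factors is known to drive cryptdin genes. Cdx2 is a homeobox factor that sets intestinal identity in the gut, while in the early embryo Cdx genes act in the growing tail end of the body axis.

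The study set Cdx2+/-Cdx4-/- mutant embryos against wildtype embryos at 5 somites, per the sample labels. RNA came from the tissue behind the last somite boundary, pooled from 10 embryos of each genotype, and each of 4 Agilent mouse genome arrays took both RNAs, in Cy3 and Cy5. The mutants lack Cdx4 and keep 1 functional Cdx2 allele, and no allele or treatment is stated for both genotypes. The arrays are numbered 1 to 4. The labels call array 1 the first replicate and array 3 the second, with arrays 2 and 4 as their dye swaps, and do not state whether separate pools of embryos were used for them. The tissue is a mixture, and fewer cells of a type and less RNA per cell cannot be told apart in it.

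The labels of the arrays did not run together. Cdx4 had log2 ratios of Cy5 over Cy3 of -2.59, -2.11, 2.82 and 2.42 on arrays 1 to 4. By the labels, Cdx4 was lower in the mutant on arrays 1 and 4 and higher in the mutant on arrays 2 and 3. Across 41108 probes, arrays 1 and 3, whose labelled dyes are alike, correlated at r = -0.36 and arrays 2 and 4 at r = -0.38, while the labelled dye-swap pairs correlated at r = 0.75 and r = 0.79. The labels therefore do not settle the direction of a ratio. The RNA with less Cdx4 on an array is called the Cdx4-low RNA here, its partner the Cdx4-high RNA. An aligned log2 ratio is Cdx4-low over Cdx4-high. By the labels of arrays 1 and 4 that is mutant over wildtype, and by those of arrays 2 and 3 it is wildtype over mutant, so that each sign would turn. Cdx2, which did not set the alignment, had aligned ratios of -0.77, -0.50, -0.45 and -0.45. Cdx4 and Cdx2, the genes altered in the labelled mutant, were thus lower in the same RNA on every array. Whether the Cdx4-low RNA is that of the mutant was not tested.

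The alpha-defensin genes lie together on chromosome 8. In the RefSeq table of GRCm38.p6, 40 genes carry a Defa name, 29 of them protein coding and 11 pseudogenes. On mm8, the build of the scanner files, 10 member probes have a position, from 22521076 on chromosome 8 for Defa21 to 23200234 for the start of the Defcr6 probe, and 6 have none. Among the tested genes, the Defcr4 probe lies at chr8:22559925-22559984, the brighter-ratio Defa3 probe at chr8:22782305-22782364 and the Defa20 probe at chr8:22974932-22974991. The names Defa31, Defa20 and Defa3 come from accessions, and the files call these probes Defcr-rs7, Defcr20 and Defcr3. The names Defcr-rs2, Defcr-rs10, Defcr-rs12, Defcr4, Defcr6 and Defa1 are kept as in the files, since their accessions were not matched in the gene table. With so many related copies, a probe may take up RNA of several genes, so a value belongs to a probe and its gene is uncertain.

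For some copies the likeness of the promoters can be given, which does not show how alike their transcripts are. RefSeq promoter windows of GRCm38.p6, from 250 bases before to 50 bases after the gene start, were matched for 5 of the 13 members. The windows of Defa31, a tested gene, and Defa23, which was too dim to be tested, were identical over 300 bases. Those of Defa21 and Defa22, neither above background on any array, were also identical to each other, and the Defa20 window matched them at 293 of 300 bases. Defa31 and Defa20, both tested, shared 80.9% of aligned positions. Over the 120 pairs of all 16 Defa windows, members or not, identity ran from 55.1% to 100%. The 3 distinct windows are printed because they set bright and dim members of nearly the same promoter beside each other, with capitals for matches to CTTTGA or CTTTGT, the core letters bound by Tcf factors, on either strand.
Defa31 (chr8:21191323-21191622, plus strand): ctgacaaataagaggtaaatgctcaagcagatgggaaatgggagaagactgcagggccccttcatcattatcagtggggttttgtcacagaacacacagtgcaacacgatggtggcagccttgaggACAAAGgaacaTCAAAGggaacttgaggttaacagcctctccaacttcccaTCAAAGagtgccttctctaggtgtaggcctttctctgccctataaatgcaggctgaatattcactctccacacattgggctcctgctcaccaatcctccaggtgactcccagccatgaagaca
Defa20 (chr8:21509008-21509307, plus strand): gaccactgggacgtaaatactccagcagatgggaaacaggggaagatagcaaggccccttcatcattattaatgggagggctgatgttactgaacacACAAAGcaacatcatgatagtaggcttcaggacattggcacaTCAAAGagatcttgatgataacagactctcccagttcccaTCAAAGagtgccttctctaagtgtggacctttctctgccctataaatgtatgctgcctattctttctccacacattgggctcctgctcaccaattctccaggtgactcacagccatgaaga
Defa21 (chr8:21025295-21025594, plus strand): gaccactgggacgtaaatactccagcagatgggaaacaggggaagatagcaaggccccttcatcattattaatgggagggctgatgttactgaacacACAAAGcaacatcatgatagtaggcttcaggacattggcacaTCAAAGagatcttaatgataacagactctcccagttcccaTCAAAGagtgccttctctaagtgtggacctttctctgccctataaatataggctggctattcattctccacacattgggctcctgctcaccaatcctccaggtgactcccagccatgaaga

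Each of the 5 windows held 3 matches to the Tcf letters, at -124, -113 and -73 from the gene start in Defa31 and Defa23, and at -153, -111 and -71 in Defa20, Defa21 and Defa22. Of 16 Defa promoters in the table, 13 (81.2%) held at least 1 match, against 31.2% of all 32851 promoters of the same length. TTTATG and TTTATT, forms of the letters bound by Cdx factors, were in 0 of the 16, against 27.6% of all promoters. No other form of the Cdx letters was searched. TTTATA, which differs from those forms in the last letter, was not covered, and its reverse complement TATAAA stands in each printed window. The 0 of 16 therefore holds only for the forms searched. The Defa windows are copies of each other and are not independent. A match is a description of letters, and its absence says only that these letters are not in the window. The members with identical windows did not have like signals: the Defa31 probe was bright in both RNAs and the Defa23 probe was above background on 2 arrays in the Cdx4-low RNA and on none in the Cdx4-high RNA.

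The brightest member was Defcr-rs2, a cryptdin-related sequence whose product is a defensin-like peptide. Its processed intensity, the scanner's background-subtracted and dye-normalised signal, was 14326, 12960, 14060 and 13788.5 in the Cdx4-low RNA of arrays 1 to 4, against 5559, 5191, 4849 and 4722 in the Cdx4-high RNA. The 4 values of the Cdx4-low RNA all lay above the 4 of the Cdx4-high RNA, and within each RNA the arrays lay close together. After background correction and loess normalisation, its aligned log2 ratios were 1.40, 1.33, 1.45 and 1.48, with a mean of 1.42 ± 0.073 (SD of the 2 labelled replicates), or 2.67-fold. The SD over the 4 arrays was 0.066. The Cdx4-low RNA was in Cy5 on arrays 1 and 2 and in Cy3 on arrays 3 and 4. The labelled replicates thus differ in dye, and the ± SD of each member cannot tell dye bias from replicate spread. A different Defcr-rs2 probe had intensities of 11282, 10483, 11736 and 11324 in the Cdx4-low RNA, against 4543, 4275, 4079 and 4117 in the Cdx4-high RNA. Its aligned ratios of 1.23, 1.27, 1.46 and 1.38 averaged 1.33, so both probes of this gene gave the same direction and nearly the same size.

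Defcr-rs10, another cryptdin-related sequence, came next. It had 6870, 5805, 5969 and 5962 units in the Cdx4-low RNA, against 2592, 2372, 2141 and 2126 in the Cdx4-high RNA. The groups did not overlap. The aligned ratios were 1.30, 1.20, 1.44 and 1.42, with a mean of 1.34 ± 0.13 (SD, n = 2 labelled replicates), or 2.53-fold.

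Defa31, an alpha-defensin named Defcr-rs7 in the files, had intensities of 2246, 1951, 1934 and 2073 in the Cdx4-low RNA, against 845, 754, 840 and 843 in the Cdx4-high RNA. Its aligned ratio averaged 1.19 ± 0.032, and the 4 arrays lay between 1.15 and 1.23. Here too every array had the higher value in the Cdx4-low RNA, with no overlap between the RNAs. Defa20, whose promoter is printed above, had 1455, 1283, 1331 and 1369 units in the Cdx4-low RNA, against 523, 486, 541 and 535 in the Cdx4-high RNA. The aligned ratios of Defa20 were 1.24, 1.12, 1.13 and 1.16, with a mean of 1.16 ± 0.024 (SD over the 4 arrays 0.052). Both genes had ratios that differed less between arrays than those of Defcr-rs10.

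Defa3, the gene of cryptdin-3, had 2106, 1887, 1989 and 1950 units in the Cdx4-low RNA, against 807, 784, 824 and 888 in the Cdx4-high RNA, and aligned ratios of 1.24, 1.13, 1.16 and 1.03 (mean 1.14 ± 0.064). Another Defa3 probe, at chr8:22782205-22782265, disagreed in size. It was an outlier spot on array 1 and was left out there, and on arrays 2 to 4 it had 1198, 1112 and 1080 units in the Cdx4-low RNA, against 947, 944 and 964 in the Cdx4-high RNA. Its ratios of 0.40, 0.15 and 0.17 averaged 0.24, in the same direction and far below those of the first probe. Because it lacked 1 array, this probe was not tested.

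Defcr4, the gene of cryptdin-4, known in the mouse as a strongly bactericidal form, was the dimmest of the members above 2-fold. It had 954, 864, 791 and 871 units in the Cdx4-low RNA, against 375, 333, 331 and 360 in the Cdx4-high RNA, with no overlap. The aligned ratios were 1.05, 0.96, 1.05 and 1.00, with a mean of 1.02 ± 0.015 (SD over the 4 arrays 0.044), or 2.02-fold. Of the tested genes it had the lowest fold at or above 2, and the next below, Defcr-rs12, was at 1.33-fold. Defcr4 fell just under 2-fold without array 1 (0.99 on the log2 scale).

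**Figure D1:**
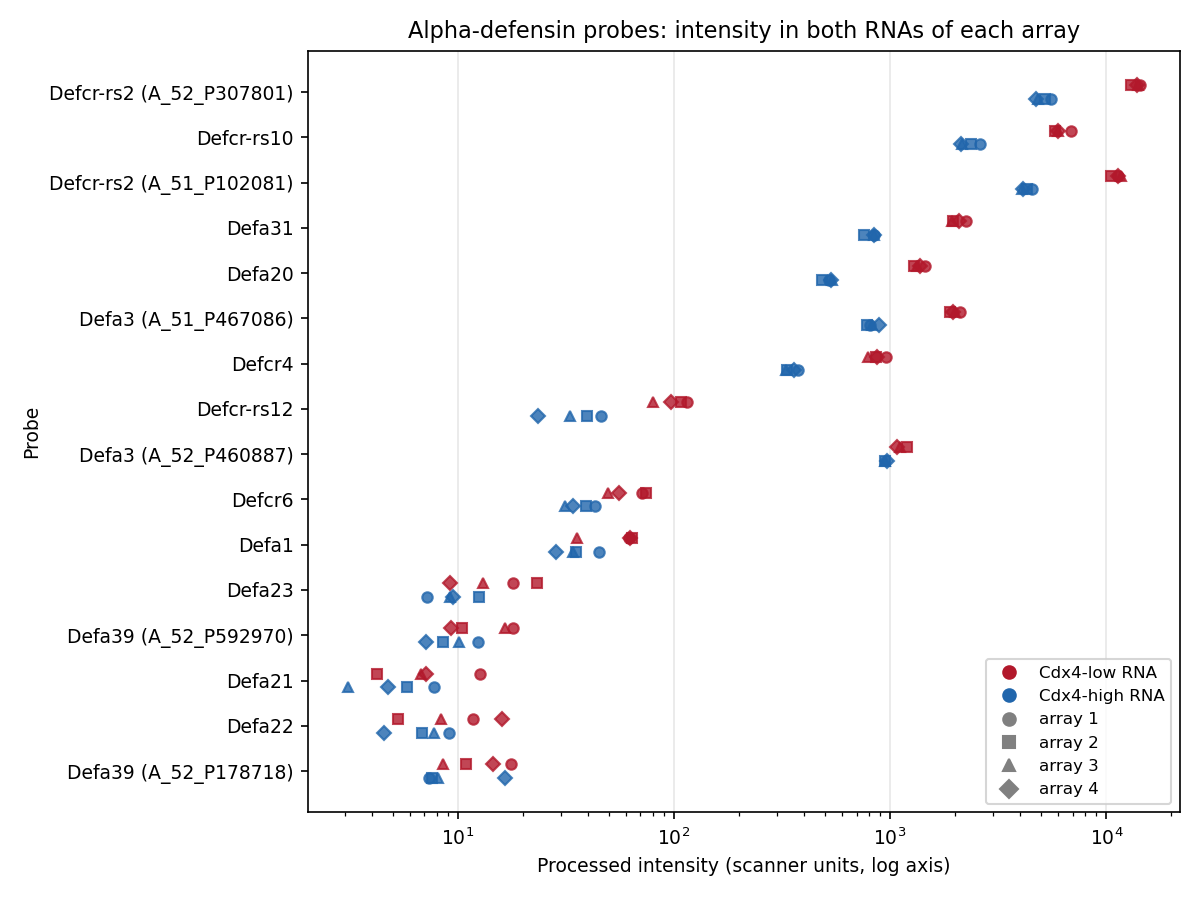
Processed intensity of the 16 alpha-defensin probes (scanner units, log axis) on each of 4 arrays, in red for the Cdx4-low RNA and in blue for the Cdx4-high RNA, with a marker shape for each array. In the 9 tested probes the red points all lie to the right of the blue ones, while the dimmest probes overlap.

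Defcr-rs12 and Defcr6 were the dim members that still passed the filter. Defcr-rs12 had 115, 108, 80.4 and 97.4 units in the Cdx4-low RNA, against 46.1, 39.8, 33.1 and 23.6 in the Cdx4-high RNA. The RNAs did not overlap, yet the aligned ratios after normexp background correction were only 0.44, 0.18, 0.52 and 0.51 (mean 0.41 ± 0.14). With the scanner's own processed signals the mean was 1.52. Defcr6, the gene of cryptdin-6, had 71.4, 74.4, 49.8 and 55.9 units in the Cdx4-low RNA, against 43.0, 39.4, 31.5 and 34.1 in the Cdx4-high RNA. Its aligned ratio averaged 0.19 ± 0.093, and 0.76 with the processed signals. An added offset draws the ratio of a dim probe toward 0 by construction, and with an offset of 16 in place of 50 the means were 0.51 for Defcr-rs12 and 0.24 for Defcr6. For both genes the size of the difference rests on how the signal is corrected.

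The other 5 genes could be given only as values without a test. Defa1 was above background on 3 of 4 arrays in each RNA, with 61.8, 64.3, 35.5 and 62.6 units in the Cdx4-low RNA, against 44.96, 35.2, 34.0 and 28.6 in the Cdx4-high RNA. The groups overlapped, and its aligned ratios were 0.23, 0.09, -0.08 and 0.14. Defa23 was not well above background on any array in the Cdx4-high RNA, and its mean ratio was 1.03-fold. The floor set for a bound did not change this value, so it is a plain ratio near background and no lower bound. On array 4 the processed intensity of Defa23 was 9.22 in the Cdx4-low RNA and 9.48 in the Cdx4-high RNA. Of the Defa39 probes, one was above background on 1 array in the Cdx4-low RNA (mean ratio 1.02-fold, also no bound, with a log2 ratio of -0.03 on array 4) and one on no array. Defa21 and Defa22 were not well above background in either RNA.

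**Figure D2:**
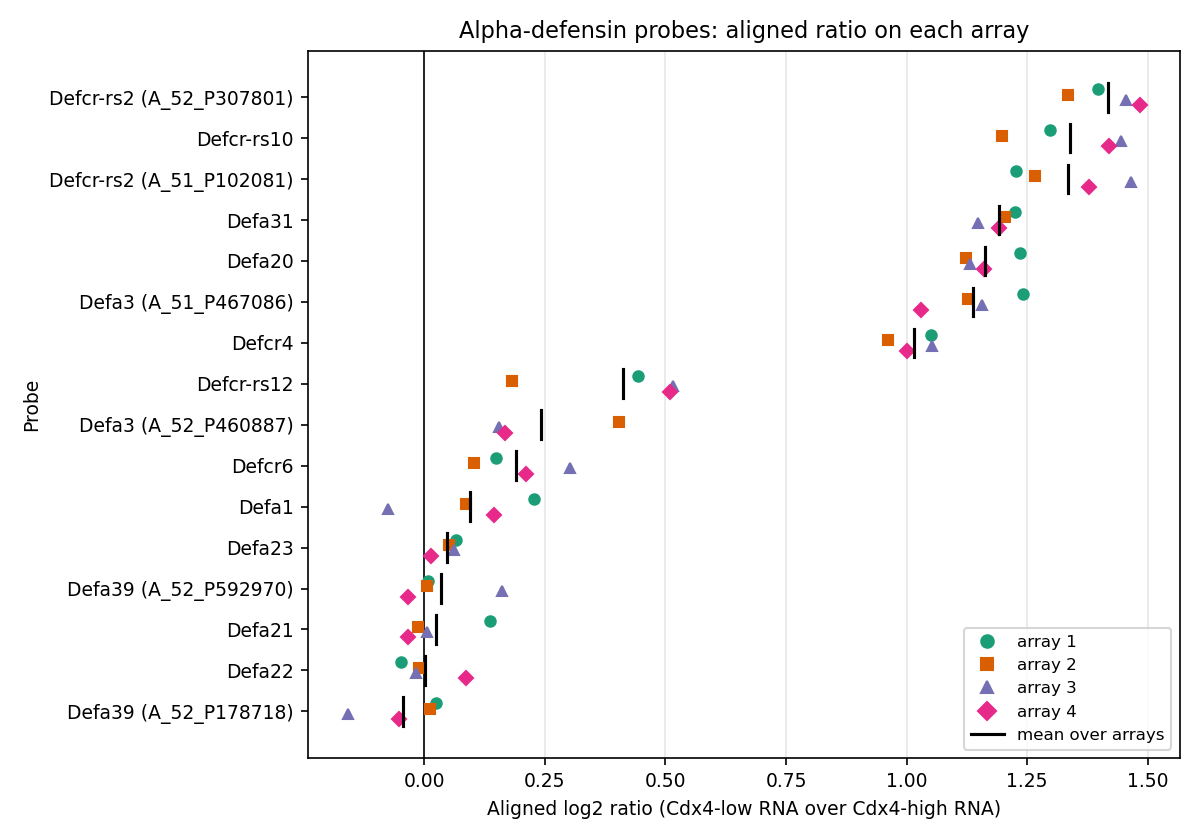
Aligned log2 ratio (Cdx4-low over Cdx4-high RNA, normexp and loess) of the 16 alpha-defensin probes, with a point for each array and a black line at the mean. The probes of the 6 genes above 2-fold lie between 0.96 and 1.48 on every array apart from the dimmer-ratio Defa3 probe, and the untested probes lie between -0.16 and 0.40.

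The 8 tested members had a median aligned log2 ratio of 1.15, against 0.01 over all 14842 genes tested. Over all 13 members, with no filter on dim probes, the median was 0.41. With the sign turned, as the labels of arrays 2 and 3 have it, the median was -1.15. By array the family median was 1.23, 1.12, 1.14 and 1.10, against 0.01, 0.04, -0.02 and 0.00 over all genes. By the labels these medians are 1.23 and 1.10 on arrays 1 and 4, and -1.12 and -1.14 on arrays 2 and 3. The arrays thus gave the family nearly the same size and differed in labelled sign.

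Of the 8 tested genes, 6 were at least 2-fold higher in the Cdx4-low RNA, beside 13 (0.0876%) of all genes tested, a count that includes the 6. Over all genes tested, 8 (0.0539%) were at least 2-fold lower. The 6 became 7 with the processed signals, where Defcr-rs12 was 2.87-fold higher, and 5 without array 1. All 8 had processed intensities without overlap, beside 13% of all genes tested in that direction, and all 8 were above 0 on the 4 arrays, beside 24.9%. In the aligned limma fit 7 of the 8 were called higher, beside 3.29% of all genes, with arrays of the same labelled number averaged, and 8, beside 22.6%, with arrays 1 and 3 and arrays 2 and 4 averaged. These counts come from the contrast that chose the genes, so nothing is read from them. The counts leave out the 5 untested genes, and 2 of the 8 that passed the filter, Defcr-rs12 and Defcr6, were dim as well.

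**Figure D3:**
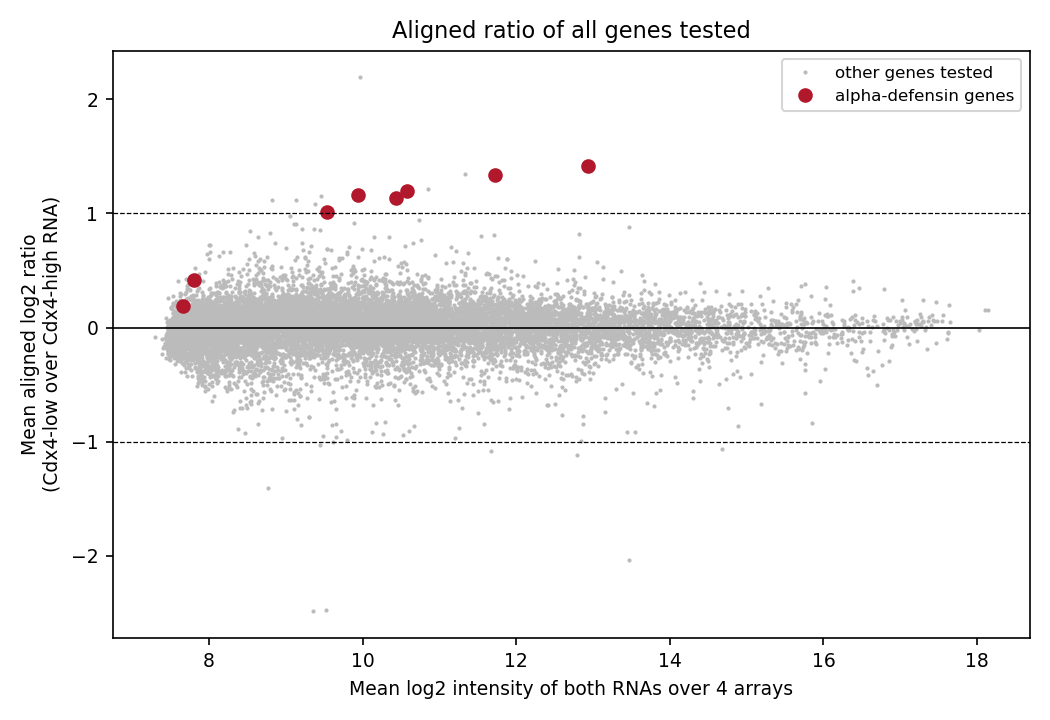
Mean aligned log2 ratio (Cdx4-low over Cdx4-high RNA) against mean log2 intensity of both RNAs for the 14842 genes tested, with the 8 alpha-defensin genes as large red points and dashed lines at 2-fold. Of the red points, 6 lie above the upper dashed line, from 1.02 to 1.42, and 2 near the dim end lie at 0.19 and 0.41.

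Contrasts that the choice of genes did not use gave the members no call. In the fit as labelled (mutant over wildtype, each labelled dye-swap pair averaged), 0 of the 8 genes passed limma's adjusted p of 0.05 and 0 had an unadjusted p under 0.05, beside 15 of 14444 genes (0.104%) and 266 genes (1.84%). The log2 ratios lay between -0.01 and 0.06 with a moderated SE of 0.050, and limma's adjusted p was 1.00 for each. For Defcr-rs2 the 4 labelled ratios were 1.40, -1.33, -1.45 and 1.48, so arrays of opposite sign cancelled within each labelled replicate. A mean near 0 in that fit is therefore no measure of a likeness between the genotypes.

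The dye term, Cy5 over Cy3 with the aligned contrast in the same fit, checks whether the probes favour a dye. Since the labelled replicates had the Cdx4-low RNA in opposite dyes, this term cannot be told apart from a difference between them. It was between -0.10 and 0.05 (log2) for the 8 genes. In limma 0 of the 8 passed at an adjusted p of 0.05, beside 23.6% of all genes, and 2 had an unadjusted p under 0.05, beside 38.1%. Those 2 were Defcr-rs10 (-0.09 ± 0.038 SE, limma adjusted p = 0.0955) and Defcr-rs12 (-0.10 ± 0.045 SE, limma adjusted p = 0.128). Without array 1, Defcr-rs12 passed (-0.17 ± 0.037 SE, limma adjusted p = 0.0403). The dye terms of the 6 genes above 2-fold were below 0.1 in size, against aligned ratios above 1.

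**Figure D4:**
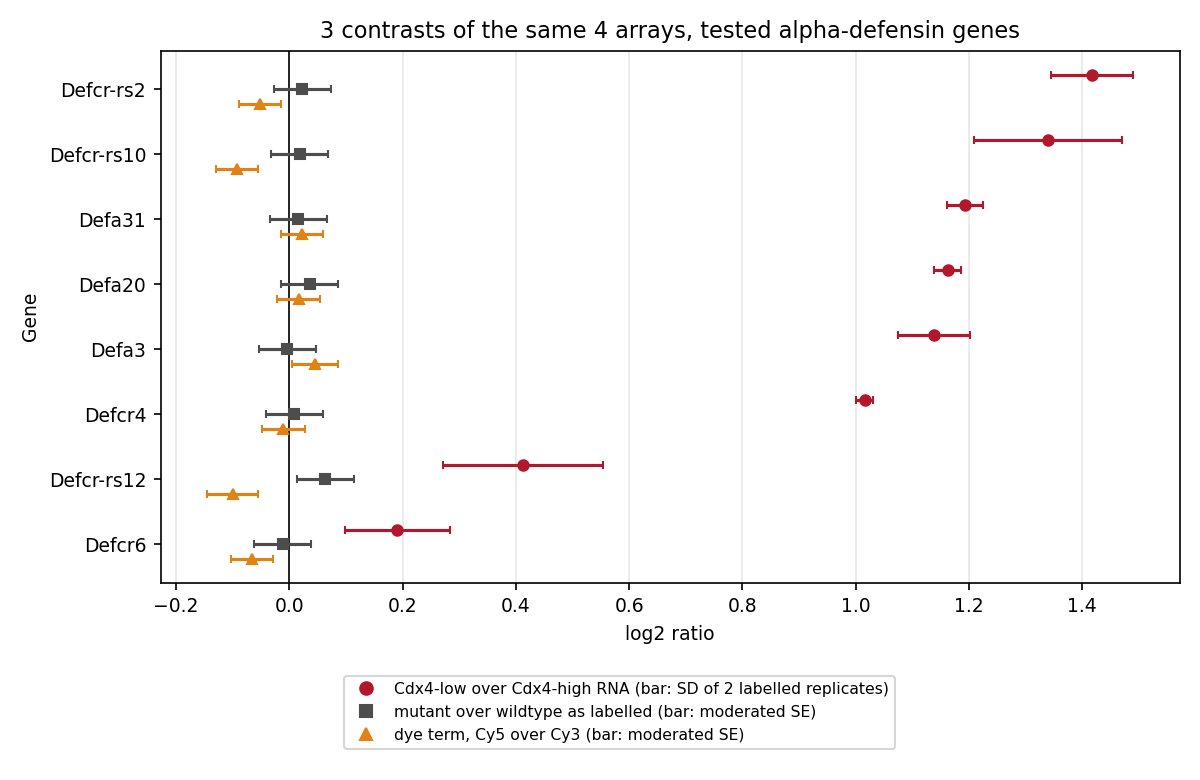
log2 ratio of the 8 tested alpha-defensin genes in 3 contrasts of the same 4 arrays: Cdx4-low over Cdx4-high RNA (red, bars are the SD of 2 labelled replicates), mutant over wildtype as labelled (grey squares) and the dye term of Cy5 over Cy3 (orange triangles), the last with moderated SE bars. The grey and orange points lie between -0.10 and 0.06, and the red points between 0.19 and 1.42. The labelled replicates had the Cdx4-low RNA in opposite dyes, so the red bars and the orange points rest on the same difference.

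Genes that accompany alpha-defensins in Paneth cells had aligned ratios closer to 0. Of 22 Paneth and crypt genes on the array, 9 were never above background, among them the lysozyme gene Lyz1, and 11 were tested. In the aligned fit 0 were called higher and 0 lower by limma with labelled-number averaging, beside 3.29% and 4.44% of all genes. With the exchange pairing of arrays 1 with 3 and 2 with 4, 2 and 2 were called, beside 22.6% and 19.6%. The median was -0.04 and the range -0.16 to 0.27. Mmp7, the enzyme that activates pro-cryptdins, was above background on 4 arrays in at least 1 channel but did not pass the filter and was not tested. The highest were Ephb3, a receptor that positions Paneth cells (0.27 ± 0.10 SE, limma adjusted p = 0.1005), and Sox9, a factor that Paneth cells need (0.27 ± 0.10 SE, limma adjusted p = 0.116). Both passed with the exchange pairing (limma adjusted p = 5.7e-07 for Ephb3 and 1.38e-06 for Sox9). In the other direction, Ephb2 (-0.16, limma adjusted p = 0.00403) and Ang6 (-0.16, limma adjusted p = 0.00488) passed with that pairing.

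Other host defence genes were mostly dark. Of 28 beta-defensin genes, 20 were never above background, and the 2 tested, Defb19 (0.00) and Defb3 (-0.01), were not called. Of 16 other antimicrobial genes, 10 were never above background and 2 were tested with 0 calls in the aligned limma fit. Those were Mpo, the granule peroxidase of neutrophils (0.02), and Slpi, a secreted protease inhibitor (0.29 ± 0.10 SE, limma adjusted p = 0.0732, and 1.14e-07 with the exchange pairing). Of 16 neutrophil and monocyte markers, 10 were never above background and the 2 tested gave 0 calls, or 1 lower with the exchange pairing. Beside the counts of these lists, 3.29% of all genes were called higher and 4.44% lower, or 22.6% and 19.6% with the exchange pairing.

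Markers of other tissue moved with the aligned contrast. Of 13 visceral endoderm genes, 12 were lower in the Cdx4-low RNA in the aligned limma fit, beside 4.44% of all genes, with a median of -0.70, and 12, beside 19.6% of all genes, with the exchange pairing. Afp, the fetal plasma protein, had an aligned ratio of -2.04 ± 0.099 SE (limma adjusted p = 2.41e-14), and the endocytic receptor gene Cubn one of -1.12 ± 0.10 SE (limma adjusted p = 2.26e-08). Sox17 (0.04) was not called. Of 8 intestinal epithelium genes tested, 0 were higher and 2 lower, beside 3.29% and 4.44% of all genes. With the exchange pairing the counts were also 0 and 2, beside 22.6% and 19.6%. The lower genes were Vil1, of the microvillus core (-0.68 ± 0.099 SE, limma adjusted p = 3.57e-05), and Fabp2, a fatty acid binding protein (-0.35 ± 0.10 SE, limma adjusted p = 0.0286). Their part in the alpha-defensin result was not tested.

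Markers of the labelled tissue were bright, and 15 of 15 posterior embryo genes on the array were tested. Of these, 2 were higher in the Cdx4-low RNA and 3 lower, beside 3.29% and 4.44% of all genes. With the exchange pairing 8 were higher and 4 lower, beside 22.6% and 19.6%. The higher genes were Cdx1 (0.40 ± 0.11 SE, limma adjusted p = 0.0172) and Wnt3a (0.34 ± 0.098 SE, limma adjusted p = 0.0273). The lower genes were Cdx4, whose sign was set by the alignment of the arrays and is no finding, Cdx2 (-0.54 ± 0.10 SE, limma adjusted p = 0.000639) and Cyp26a1, the retinoic acid-degrading enzyme of the tail bud (-0.65 ± 0.10 SE, limma adjusted p = 7.2e-05). Of 10 Wnt and Tcf target genes, 2 were higher and 0 lower, beside 3.29% and 4.44% of all genes, and 6 and 1 with the exchange pairing, beside 22.6% and 19.6%. Nkd1, a Wnt feedback inhibitor, had 0.57 ± 0.10 SE (limma adjusted p = 0.000379) and Notum, an enzyme that inactivates Wnt ligands, had 0.38 ± 0.10 SE (limma adjusted p = 0.0171). Axin2 (-0.01) and Lgr5 (0.00), widely used as Wnt reporters, were not called.

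Neighbours on chromosome 8 lay close to 0. No other probe with a position lay between the first and the last member probe. Within 1e+06 bases either side there were 39 other probes, and of 14 genes tested 1 was called higher (Smim19, 0.34 ± 0.099 SE, limma adjusted p = 0.03) and 0 lower, with a median of -0.01 and a range of -0.16 to 0.34. With the exchange pairing 2 were called higher, Smim19 and Nek3, and 1 lower, Thsd1. Olfactory receptors and prolactins are other gene families of many copies. Of 910 olfactory receptor genes on the array, 572 were never above background, and of 74 tested 0 were called higher and 1 lower by limma, or 0 and 2 with the exchange pairing. Of 9 prolactin-family genes tested, limma called 3 higher and 1 lower (exchange pairing: 5 higher and 1 lower), with aligned ratios from -1.41 to 0.39. Both families stand beside the same shares over all genes as the neighbours.

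The tested genes most like the family over the 4 arrays, by Euclidean distance to the per-array family median, were Fam183b (0.0904), Etnk2 (0.205), Col26a1 (0.21), Adamts2 (0.404), Gal (0.42) and Fgfbp3 (0.472). Etnk2 is an ethanolamine kinase, Col26a1 a collagen chain, Adamts2 a procollagen protease and Gal the galanin neuropeptide. Their mean aligned log2 ratios lay between 0.94 and 1.21. The likeness is over 4 arrays of the same RNAs and was chosen by its size.

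The way the ratio is made changed its size, while its sign came with the choice of the members. Over the alternatives tried, Defcr-rs2 lay between 1.37 and 1.92 and Defcr4 between 0.99 and 1.31. The widest range was that of Defcr-rs12, from 0.31 to 1.52. The family median was 1.48 when arrays were only centred on their median, and the median over all genes moved to 0.28 as well.

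**Figure D5:**
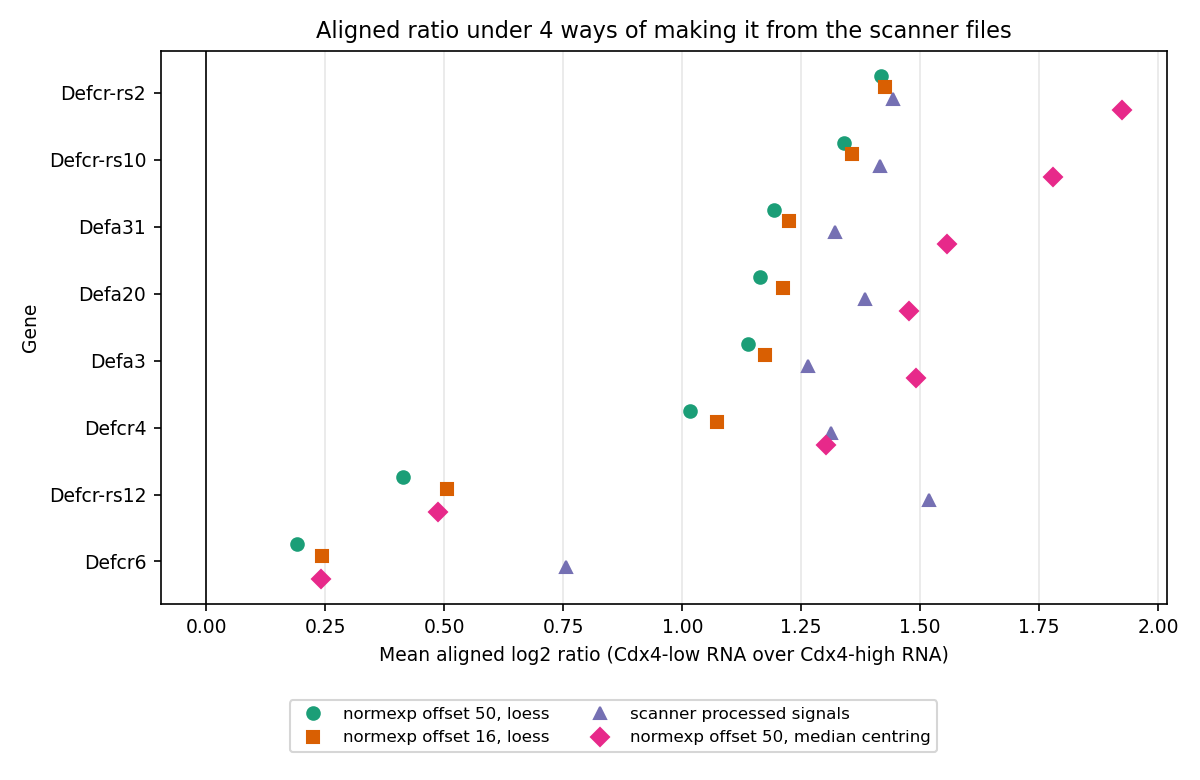
Mean aligned log2 ratio of the 8 tested alpha-defensin genes under normexp with offset 50 and loess, normexp with offset 16 and loess, the scanner's processed signals, and normexp with median centring. Every point lies right of 0, and Defcr-rs12 moves most, from 0.41 to 1.52 with the processed signals.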

How the data were processed

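The 4 arrays hold 2-colour hybridisations, and the members and gene lists were chosen with earlier results of these data known. The authors scanned them with software that the submitters' processing notes name as Agilent Feature Extraction 9.5.3. Each deposited scanner file holds intensity values per spot and dye (mean signal, local background median and processed signal), and a log10 ratio of Cy5 over Cy3, per the file headers. The authors' deposited series table holds log10 values that equal the scanner ratio within 1e-05 for 100% of features once the labelled dye swaps are turned, so its direction carries the labels' conflict.

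With limma 3.58.1 in R 4.3.3, the background was corrected by the normexp method (offset 50) and loess within arrays gave log2 ratios. Control spots had weight 0, and 103 to 167 outlier spots per array were left out; no member was saturated. Well above background covered 50.6% to 56.4% of spots in Cy3 and 58.9% to 64.9% in Cy5. Spots of a probe were averaged. Tests took only probes with a ratio on every array where at least 1 RNA stood well above background on all 4, and a gene took the brightest such probe. Names came from accessions for 23374 of the 41174 probes; of the rest, 6733 had a current and 2919 an older symbol, and 8148 kept the file's name.

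Labelled-number averages entered lmFit and eBayes, p-values were adjusted over all genes by Benjamini-Hochberg, and the threshold was 0.05. Each gene had 1 residual degree of freedom, and limma set 25.8 prior degrees of freedom in the aligned fit, so most of the error is pooled over genes. In the fit as labelled and in the exchange pairing that prior was infinite. P-values cover only the variation among these 4 hybridisations, possibly technical, and the number of arrays limits precision. In the aligned fit the residual of a gene is the difference between the labelled replicates, which had the Cdx4-low RNA in opposite dyes. That error therefore holds any dye bias of the probe and cannot be told apart from it. In the exchange pairing each average held both dyes, so a constant dye bias did not enter the error. All arrays share 1 slide, so no batch could be tested. Named genes are all members, Cdx4 and Cdx2, and at most 4 called genes a direction and the defining markers of each list. The 6 genes nearest the family are named as well. Ephb3, Sox9, Ephb2, Ang6, Slpi, Mpo, Defb3, Defb19, Smim19, Nek3, Thsd1, Axin2 and Lgr5 were named after their values were seen. Promoters were aligned with Biopython 1.88. The fits were tested on simulated data. Alternatives were the background correction, centring, filter, probe rule, pairing and left-out arrays.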

Additional observations from a re-analysis of the deposited data

How the results depend on the processing

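The aligned ratios of the members changed in size with the background correction, the centring and the arrays kept, and the choice of members had fixed their sign. Both filter alternatives left the ratios of the 8 genes as they were, and the series table and processed signals are the same values. The family median was 1.48 with median centring, where the median of all genes was 0.28. It was 1.35 with the processed signals and 1.35 with the authors' series table. It was 0.41 with no filter on dim probes, which adds the 5 dim members. Leaving out an array or a labelled replicate gave 1.09 to 1.17, over 8 to 10 member genes, since the filter follows the arrays kept. The median over all genes was then -0.013 to 0.030, the negative value without replicate 1. The limma count of genes called in the aligned fit was 1147. It was 8 with median centring (579 at an unadjusted p under 0.05), 14 with no filter, 6252 with the exchange pairing, 8220 with the third pairing (arrays 1 with 4 and 2 with 3) and 6914 with arrays unpaired. It was 226 without array 1, 513 without array 2, 610 without array 3, 6683 without replicate 1 and 5245 without replicate 2, and so ranged from 226 to 6683. By design the pairings differ in whether a dye bias of the probe enters the error. How far this set the counts was not tested, nor were other causes. As labelled, limma called 15 genes, and 0 with median centring (0 at an unadjusted p under 0.05), 0 with the processed signals or the series table (651 each), 1 with no filter, and 0 without any one array (37 to 451) or labelled replicate (0 to 6). The dye term had 3510 calls, 0 with median centring (73 at an unadjusted p under 0.05), 2098 without array 1, 1653 without array 2, 1642 without array 3 and 2906 without array 4. Left-out arrays gave 0 to 1 members called for dye, the 1 being Defcr-rs12 without array 1. In the fit as labelled 0 members were called in each alternative, with 0 to 2 at an unadjusted p under 0.05. Leaving out a labelled replicate left both arrays with the same aligned dyes, so the dye term could not be fitted. A fit with the replicate number as a block was not made because there is 1 group of ratios, each of which already sets both RNAs of an array against each other. Signal over background limits the dim members: Defcr-rs12 and Defcr6 were 1.52 and 0.76 with the processed signals.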
